A study of Mus musculus with 2 samples.

Results

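Dentate gyrus granule neurons were described here in single-nucleus RNA sequencing of the hippocampus of Stra8-cKO mice. The members were 3788 nuclei of 36324 barcodes, 2774 in the male library and 1014 in the female library. The tissue was hippocampus, nuclei were released by detergent lysis, and both libraries came from 3-month-old mice of the genotype written Stra8L/-; Nestin-Cre. The labels do not spell out the alleles or say how many mice were pooled in a library. The Nestin-Cre transgene is active in progenitors of the nervous system, and recombination is then inherited by neurons and macroglia. There was 1 library for each sex and none of another genotype was analysed here. Sex, animal, dissection and library therefore cannot be told apart, no test could be made, and every interval below is a 95% interval of counting error only.

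Granule neurons are the principal cells of the dentate gyrus. They receive the perforant path from the entorhinal cortex and send mossy fibres, axons with large zinc-rich terminals, to CA3 pyramidal neurons and to hilar cells. They fire sparsely, and the few that fire switch on immediate early genes such as Fos and Arc. The homeobox factor Prox1 sets and keeps their identity, and new granule neurons are added throughout life in the mouse.

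Members were chosen by measured values. A nucleus needed at least 500 detected genes and at most 5% mitochondrial counts. It needed at least 6 unique molecular identifiers (UMIs, each 1 captured molecule) over at least 4 of 7 marker genes, namely Prox1, Glis3, Stxbp6, Stra6, Arsj, Trpc6 and Gpc4. It could hold at most 2 UMIs of Gad1 and Gad2, at most 2 of the oligodendrocyte genes St18, Prr5l and Mag, and fewer than 3 detected genes of Fos, Fosb, Junb, Arc, Npas4, Egr1, Egr3, Egr4 and Nr4a1. Levels of these genes describe the choice and support nothing.

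The filters on genes and mitochondrial share kept 16034 male and 19251 female nuclei. The marker criterion was met by 4456 male and 2232 female nuclei. The limit on Gad1 and Gad2 then removed 237 male and 157 female nuclei. The limit on oligodendrocyte genes removed 1329 male and 1029 female nuclei, which was 31.5% of the male nuclei that reached this step (95% exact interval 30.1 to 32.9) and 49.6% of the female ones (47.4 to 51.8). The limit on immediate early genes removed 116 male and 32 female nuclei, kept apart here as granule neurons with immediate early genes.

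Near the marker threshold, 85 male and 42 female nuclei had exactly 6 marker UMIs over 4 or more genes. Just outside it were 50 male and 36 female nuclei with 5 UMIs over 4 or more genes. Rfx3, a ciliary transcription factor outside the rule, was at 1159 CPM (UMIs of the gene scaled to a common class total) in male and 1332 CPM in female nuclei just inside, and at 910 CPM in male and 922 CPM in female nuclei just outside. C1ql3, a granule marker outside the rule, was at 273 CPM in male and 170 CPM in female nuclei just inside and at 235 CPM in male and 226 CPM in female nuclei just outside, the other way round in the female library. Galntl6, a CA1 marker, was at 964 CPM in male and 1085 CPM in female nuclei just inside and at 836 CPM in male and 2554 CPM in female nuclei just outside. A further 511 male and 269 female nuclei had 6 or more marker UMIs over only 3 genes and were not members.

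The median member held 5531.5 UMIs among male and 5871 among female nuclei. Median UMIs were 8940 (male) and 9067 (female) in CA1-like neurons, 11360 (male) and 11934 (female) in CA3-like neurons, and 1882 (male) and 2058 (female) in oligodendrocyte-like nuclei. The 2 libraries shared 101 barcodes, of which 1 was a member in both. Xist, the RNA that coats the inactive X chromosome, was at 1.14 CPM in male and 3551 CPM in female members, and Eif2s3y, a Y-linked gene, at 165 CPM in male and 0.559 CPM in female members. Stra8, the deleted gene and a retinoic acid target known from the germ line, had 0 UMIs in the male members and 1 UMI in the female members. A count of 0 in 2774 nuclei allows a share of nuclei with a UMI of up to 0.108%. The files do not show whether such a read would lie in the deleted part of the gene, so this count does not check the deletion.

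The label was set against marker genes that the rule did not use. Of 12 such granule genes, 11 reached 20 CPM in a compared class, and 10 of these were at least 2-fold higher in members than in CA1-like and in CA3-like neurons of both libraries. Of all 7938 genes with the same minimum, 2.95% were higher in this way and 1.12% lower. The rule separates the same nuclei, so the share is a description only. Rfx3 was at 1388 CPM in male and 1534 CPM in female members, against 251 (male) and 269 (female) CPM in CA1-like and 164 (male) and 166 (female) CPM in CA3-like neurons. C1ql3, a secreted synapse organiser, was at 289 CPM in male and 164 CPM in female members, against 64.8 (male) and 31.4 (female) CPM in CA1-like neurons. Both genes were higher in members than in either pyramidal class, in each library. Calb1, a calcium buffer of mature granule neurons, was the one short of 2-fold, with 126 (male) and 94.7 (female) CPM in members, 56.1 (male) and 47.7 (female) CPM in CA1-like neurons, and 12.7 (male) and 5.29 (female) CPM in CA3-like neurons.

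**Figure D1:**
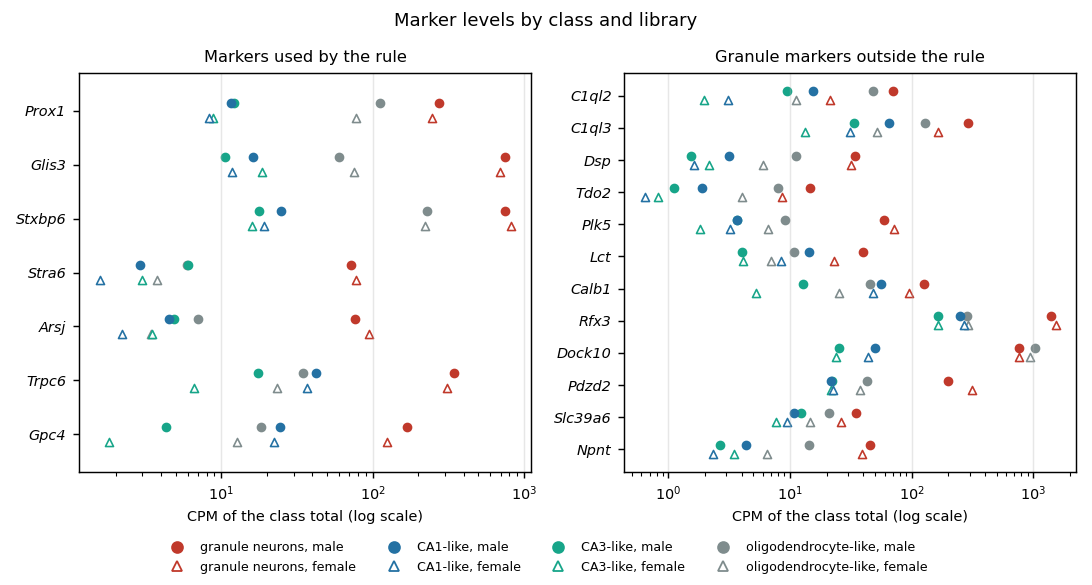
Level of each marker gene in CPM (log scale) in 4 classes of nuclei; filled circles are the male and open triangles the female library. Left, the 7 genes the rule used. Right, 12 granule markers outside the rule, of which Rfx3 reaches 1388 (male) and 1534 (female) CPM in granule neurons.

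RNA of other cell types was also counted in members. Of the oligodendrocyte markers, St18, a transcription factor, was at 119 CPM in male and 129 CPM in female members, against 12.9 (male) and 16.4 (female) CPM in CA1-like neurons. Mag and Mog, genes of the myelin sheath, were at 6.63 and 5.87 CPM in male members and at 7.27 and 7.41 CPM in female members. St18 was higher in members than in CA1-like neurons of both libraries, while the myelin genes were low. After thinning every nucleus to 1000 UMIs, St18 was detected in 12.1% of male members, 1.73% of CA1-like and 1.73% of CA3-like nuclei, and in 13.5% of female members, 2.34% of CA1-like and 1.75% of CA3-like nuclei of the female library. The limit on St18 acts on a gene that is itself detected in granule neurons. With the limit on Prr5l and Mag alone, members were 3764 male and 1800 female nuclei, rather than 2774 and 1014. This alternative was chosen after seeing the data. Why the losses differed between the libraries was not tested.

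The share of nuclei that were members was 17.3% in the male library (16.7 to 17.9) and 5.27% in the female library (4.96 to 5.59), a ratio of 3.28 (3.06 to 3.53). Counted by the marker criterion alone the shares were 27.8% (male) and 11.6% (female), a ratio of 2.40 (2.28 to 2.52). Among members, CA1-like and CA3-like neurons together, members made up 54.6% in male and 31.8% in female tissue, a ratio of 1.71 (1.59 to 1.84). The ratio was above 1 in each of these counts, and its size differed with the nuclei counted. The oligodendrocyte gene limit removed a smaller share of the male than of the female nuclei, as given above. Dissection also sets such shares, and its part cannot be told apart from sex.

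Transcription factors came first among the gene groups compared with pyramidal neurons. Of 23 measured, 2 were at least 2-fold higher and 1 at least 2-fold lower in members in all 4 comparisons, against 2.95% higher and 1.12% lower of all genes with the same minimum. Mef2c, an activity-regulated factor of neurons, was at 423 CPM in male and 320 CPM in female members, against 124 (male) and 107 (female) CPM in CA1-like and 75.3 (male) and 58.5 (female) CPM in CA3-like neurons. Sox11, a factor of immature neurons, was at 41.5 (male) and 30.9 (female) CPM in members and at 15.6 (male) and 8.39 (female) CPM in CA1-like neurons. Both were higher in members in each library, whereas Sox5 was lower, with 77.7 (male) and 94.1 (female) CPM in members, 233 (male) and 200 (female) CPM in CA1-like and 345 (male) and 321 (female) CPM in CA3-like neurons. Neurod2, a general factor of excitatory neurons, was at 96.4 (male) and 68.9 (female) CPM in members, close to 80.8 (male) and 60.2 (female) CPM in CA1-like neurons.

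Genes of the mossy fibre terminal were compared in the same way. Of 25 measured vesicle and zinc genes, 2 were at least 2-fold higher in members in all 4 comparisons and 0 were lower, against 2.95% and 1.12% of all genes. Synpr, synaptoporin of the mossy fibre vesicle, was at 533 CPM in male and 510 CPM in female members, against 31.5 (male) and 27.9 (female) CPM in CA1-like and 182 (male) and 217 (female) CPM in CA3-like neurons. Unc13c, a vesicle priming factor, was at 53.2 (male) and 47.8 (female) CPM in members and at 9.08 (male) and 15.4 (female) CPM in CA1-like neurons. Slc30a3, the vesicular zinc transporter, had 84.9 (male) and 53.0 (female) CPM in members, 42.0 (male) and 27.6 (female) CPM in CA1-like neurons, and 28.7 (male) and 16.8 (female) CPM in CA3-like neurons. It stayed under 2-fold in the comparison with CA1-like neurons.

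Of 23 measured synapse organisers, 5 were at least 2-fold higher and 2 lower, against 2.95% and 1.12% of all genes. C1ql2 and C1ql3, secreted by mossy fibres, were among the higher ones, with Lrrtm3, Lrrtm4 and Kirrel3. Lrrtm4, a postsynaptic partner of heparan sulfate proteoglycans, was at 5665 CPM in male and 6389 CPM in female members, against 1083 (male) and 832 (female) CPM in CA1-like and 1277 (male) and 1388 (female) CPM in CA3-like neurons. Kirrel3, an adhesion molecule of the mossy fibre synapse, was at 1575 (male) and 1400 (female) CPM in members, 573 (male) and 301 (female) CPM in CA1-like and 89.7 (male) and 122 (female) CPM in CA3-like neurons. Cntnap2, an axonal neurexin relative, was lower, with 923 (male) and 1287 (female) CPM in members against 6160 (male) and 6901 (female) CPM in CA1-like and 4636 (male) and 5339 (female) CPM in CA3-like neurons. Nrxn3 was lower as well.

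Few glutamate receptor genes were past 2-fold in all 4 comparisons, which does not show that the others were alike. Of all genes with the same minimum, 2.95% were higher and 1.12% lower in this way. Among 6 measured metabotropic genes, 1 was higher and 0 were lower. Grik3 and Neto2, a kainate receptor subunit and an auxiliary subunit, were the 2 of 7 kainate genes past 2-fold, in opposite directions. Grik3 was at 53.7 CPM in male and 51.9 CPM in female members, against 13.3 (male) and 9.27 (female) CPM in CA1-like and 7.14 (male) and 6.28 (female) CPM in CA3-like neurons. Grik4, a subunit known at mossy fibre synapses, was at 251 (male) and 263 (female) CPM in members, between 118 (male) and 109 (female) CPM in CA1-like and 1003 (male) and 1086 (female) CPM in CA3-like neurons. Shisa9, an AMPA receptor auxiliary subunit, was the 1 of 15 AMPA and NMDA genes past 2-fold, with 696 (male) and 592 (female) CPM in members against 157 (male) and 123 (female) CPM in CA1-like and 64.7 (male) and 64.6 (female) CPM in CA3-like neurons. Grm2, an inhibitory presynaptic receptor of mossy fibres, was at 34.7 (male) and 22.5 (female) CPM in members and at 7.07 (male) and 1.34 (female) CPM in CA1-like neurons.

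Of 11 GABA-A receptor subunits, Gabra4 and Gabrd were past 2-fold, both higher in members. Of all genes with the same minimum, 2.95% were higher and 1.12% lower in this way. The alpha4 and delta subunits form extrasynaptic receptors that carry tonic inhibition. Gabrd was at 30.3 CPM in male and 16.9 CPM in female members, against 6.84 (male) and 3.79 (female) CPM in CA1-like and 2.94 (male) and 2.15 (female) CPM in CA3-like neurons. Gabra4 was at 227 (male) and 224 (female) CPM in members and at 111 (male) and 94.8 (female) CPM in CA1-like neurons.

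Potassium channels differed in both directions. Of 30 potassium channel genes, Kcnc4 and Kcnk1 were higher and Kcnc2 and Kcnq5 lower in members, past 2-fold. The shares of all genes with the same minimum were 2.95% higher and 1.12% lower. Kcnq5, a subunit of the M-current channel, was at 299 CPM in male and 397 CPM in female members, against 1203 (male) and 1340 (female) CPM in CA1-like and 4025 (male) and 3743 (female) CPM in CA3-like neurons. Kcnk1, a leak channel, was at 66.4 (male) and 64.3 (female) CPM in members and at 27.1 (male) and 21.8 (female) CPM in CA1-like neurons.

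Ntf3, the growth factor neurotrophin-3, was the 1 of 13 peptide and growth factor genes past 2-fold in all 4 comparisons, at 44.0 CPM (male) and 28.1 CPM (female) in members against 3.12 (male) and 2.80 (female) CPM in CA1-like and 8.54 (male) and 6.94 (female) CPM in CA3-like neurons. Of 13 modulatory receptors, Htr4, Npy1r and Oprm1 were higher and Chrm3 was lower in members, past 2-fold. For both lists, the shares of all genes with the same minimum were 2.95% higher and 1.12% lower. Oprm1, the mu opioid receptor, was at 125 (male) and 91.9 (female) CPM in members, 12.2 (male) and 11.3 (female) CPM in CA1-like and 10.4 (male) and 14.2 (female) CPM in CA3-like neurons. Chrm3, a muscarinic receptor, was at 169 (male) and 240 (female) CPM in members, 1211 (male) and 1555 (female) CPM in CA1-like and 1048 (male) and 1218 (female) CPM in CA3-like neurons.

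**Figure D2:**
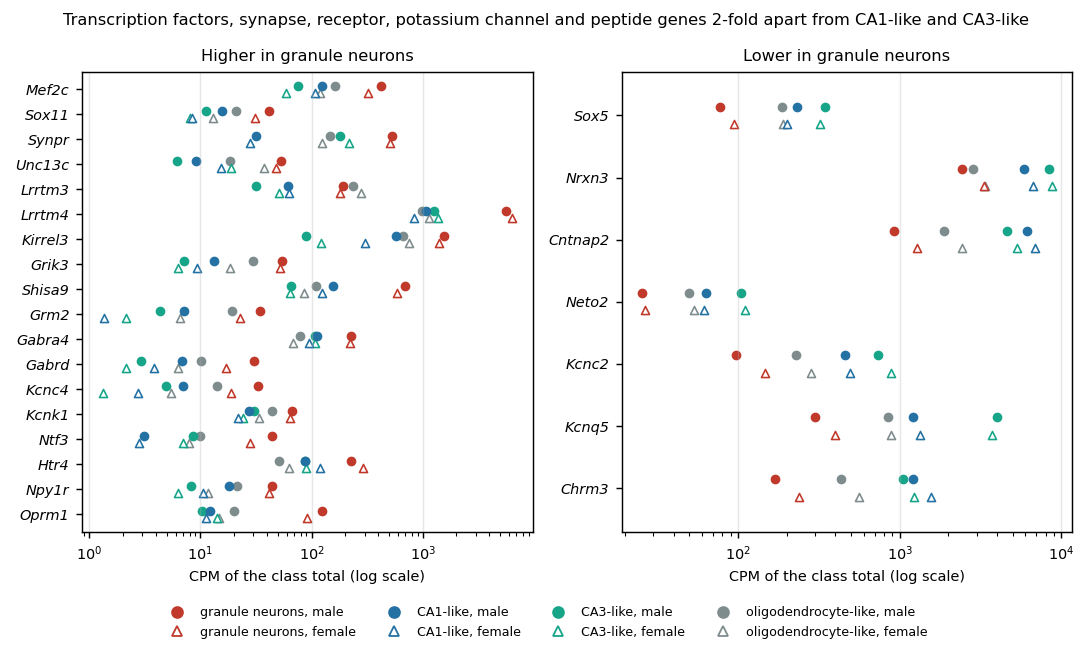
Listed transcription factor, synapse, receptor, potassium channel and peptide genes at least 2-fold higher (left) or lower (right) in granule neurons than in CA1-like and CA3-like neurons of both libraries. Each point is a level in CPM on a log scale; Oprm1 is at 125 (male) and 91.9 (female) CPM in granule neurons.

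Among 3380 genes with at least 50 CPM in members of both libraries, 132 or 3.91% were at least 2-fold higher in members in all 4 comparisons. They were led by Dock10, Zfp804b, Ptchd4, Slc4a4 and Adarb2. Dock10 was at 763 CPM in male and 758 CPM in female members, against 50.2 (male) and 43.4 (female) CPM in CA1-like and 25.5 (male) and 23.8 (female) CPM in CA3-like neurons. Adarb2, a relative of the RNA-editing enzymes that is also a marker of some interneurons, was at 1462 (male) and 1385 (female) CPM in members, 70.7 (male) and 78.4 (female) CPM in CA1-like and 87.0 (male) and 132 (female) CPM in CA3-like neurons. After thinning to 1000 UMIs it was detected in 72.2% of male and 71.3% of female members, so its counts did not come from a few nuclei. The limit on Gad1 and Gad2 capped those genes at 2 UMIs per member by construction. Gad1 was at 46.0 (male) and 44.9 (female) CPM in members. It was at 13.1 (male) and 9.97 (female) CPM in CA1-like and 10.1 (male) and 5.62 (female) CPM in CA3-like neurons. The same cap on UMIs applied to those neurons, whose median depth was greater, so the highest CPM it allows differs by class. These Gad1 levels describe the choice and support nothing. Slc4a4, a sodium bicarbonate cotransporter, was at 618 (male) and 625 (female) CPM in members against 48.2 (male) and 52.1 (female) CPM in CA1-like neurons.

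At the low end, 68 of 2730 genes with at least 50 CPM in CA1-like and CA3-like neurons of both libraries, or 2.49%, were at least 2-fold lower in members in all 4 comparisons. Htr1f, a serotonin receptor, was at 29.5 CPM in male and 33.0 CPM in female members, against 179 (male) and 204 (female) CPM in CA1-like and in CA3-like neurons alike. Sema3e, a secreted guidance molecule, was at 45.9 (male) and 61.8 (female) CPM in members, 272 (male) and 332 (female) CPM in CA1-like and 281 (male) and 298 (female) CPM in CA3-like neurons. Some members also held pyramidal markers: 166 of 2774 male (5.98%) and 65 of 1014 female members (6.41%) reached the CA1 marker minimum. Astrocyte markers reached the same minimum in 153 male (5.52%) and 66 female members (6.51%). Without members that reached the CA1 or CA3 minimum, an alternative chosen after seeing the data, 119 genes were lower.

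**Figure D3:**
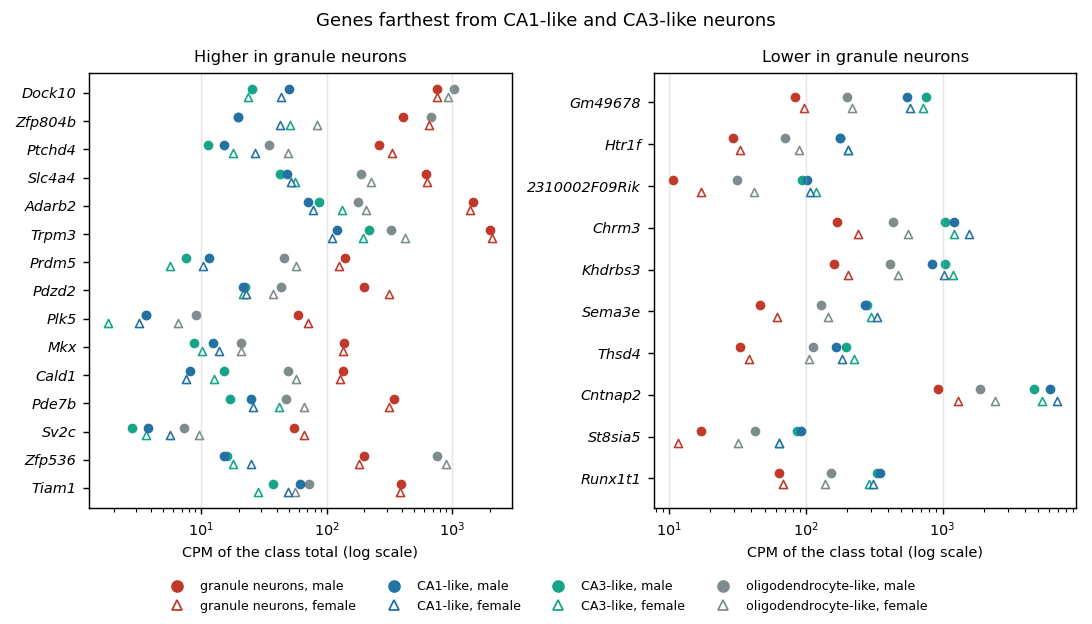
The 15 genes highest (left) and 10 lowest (right) in granule neurons relative to CA1-like and CA3-like neurons of both libraries, in CPM on a log scale. Dock10 is at 763 (male) and 758 (female) CPM in granule neurons; oligodendrocyte-like nuclei are shown in grey for comparison.

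Male and female members were set against each other for 7397 genes with at least 100 UMIs over both libraries and 20 CPM in one. Ratios are on the log2 scale after 5 CPM was added to both the male and the female level, which understates the difference of low genes. At least 2-fold higher in the male members were 23 genes (0.311%), and 10 genes (0.135%) were at least 2-fold higher in the female members. The excess on the male side did not hold under each setting: the counts, higher in male and higher in female, were 15 and 16 with ratios centred on the median gene, 16 and 19 with looser markers, and 25 and 23 with minimums of 30 UMIs and 5 CPM. The median gene stood at 0.09, and 64.9% of genes were higher in male members and 35.1% were higher in female members, so small differences of lists read against that shift.

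Ttr, transthyretin, a secreted carrier of thyroxine and retinol made in choroid plexus, was at 678 CPM in male and 55.1 CPM in female members, a log2 ratio of 3.51 (3.37 to 3.64). The same ratio was 3.35 in CA1-like, 3.66 in CA3-like and 3.73 in oligodendrocyte-like nuclei, so it was not particular to granule neurons. The other 6 choroid plexus markers summed to 120 CPM in male and 90.0 CPM in female members. Of these, 4 of the 6 were higher in male members, near the 64.9% of all genes. Enpp2 alone was at 64.7 CPM in male and 32.7 CPM in female members. It was at 711 (male) and 494 (female) CPM in oligodendrocyte-like nuclei.

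Several other genes were higher in the male nuclei of each class. C1ql2, on chromosome 1 from 120340582 to 120343174 (mm10), was at 70.1 CPM in male and 21.3 CPM in female members, a ratio of 1.52 (1.31 to 1.72). It was 1.35 in CA1-like and 1.70 in oligodendrocyte-like nuclei. Hspa8, a constitutive heat shock chaperone, was at 242 (male) and 99.8 (female) CPM, a ratio of 1.24 (1.13 to 1.35). Hspa2, another chaperone gene of that family, had a ratio of 1.17. Bhlhe22, a factor of cortical and granule neuron development, was at 39.5 (male) and 14.8 (female) CPM, a ratio of 1.17 in members against 0.42 in CA1-like and 0.64 in CA3-like neurons.

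Among genes higher in the female members, Lgr6, a receptor of R-spondins, was at 4.13 CPM in male and 26.3 CPM in female members, a ratio of -1.78 (-1.99 to -1.55). It was at 0.295 CPM in male and 0.583 CPM in female CA1-like neurons. After thinning, it was detected in 0.397% of male and 2.27% of female members, and in 0.315% of male and 0.104% of female oligodendrocyte-like nuclei. Cdh7, a cell adhesion cadherin, was at 5.54 (male) and 24.5 (female) CPM, a ratio of -1.48 (-1.71 to -1.25), against 0.15 in CA1-like and -0.72 in CA3-like neurons. Fgf10, a secreted growth factor, was at 22.4 (male) and 50.9 (female) CPM, a ratio of -1.03 (-1.21 to -0.85), against -0.06 in CA1-like and -0.34 in CA3-like neurons. These genes were chosen by their ratio in members, and Lgr6 was below the added 5 CPM in both pyramidal classes, which holds its ratio there near 0. Rnf121, by contrast, had ratios of -1.15 in members, -0.81 in CA1-like, -1.13 in CA3-like and -1.21 in oligodendrocyte-like nuclei.

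**Figure D4:**
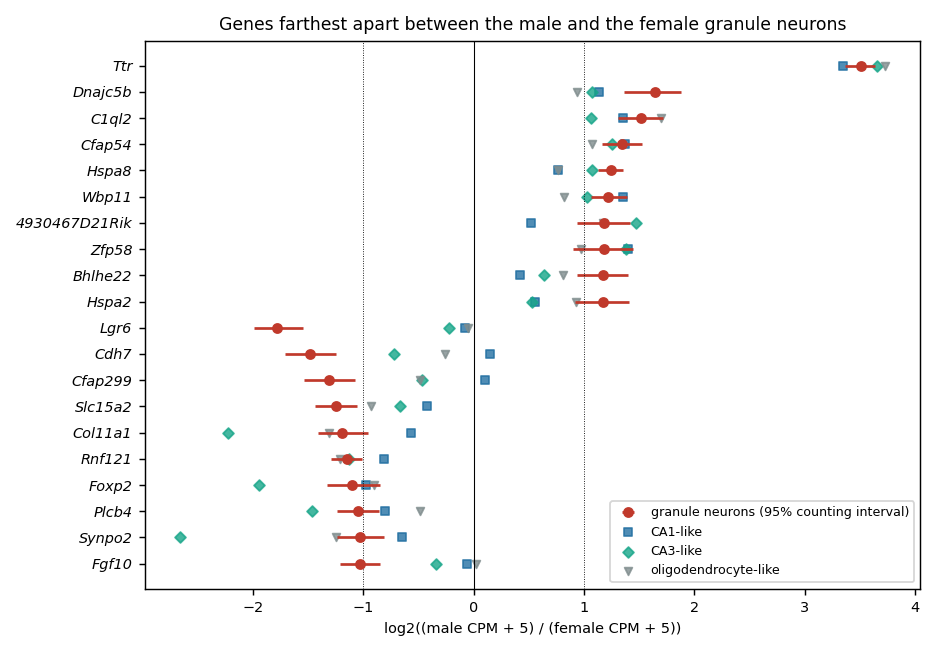
Log2 ratio, male over female, of the 10 highest and 10 lowest genes in granule neurons, with 95% counting intervals in red, beside the same ratio in 3 other classes. Ttr is at 3.51 in granule neurons and between 3.35 and 3.73 in the others, and Lgr6 is at -1.78 in granule neurons.

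Gene lists mostly followed the overall shift. Nuclear-encoded oxidative phosphorylation genes were higher in the male members for 23 of 24, against 64.9% of all genes, with a median of 0.22 in members, 0.11 in CA1-like and 0.21 in oligodendrocyte-like nuclei. All 10 mitochondrially encoded genes were higher in the female members, with a median of -0.18, and the median mitochondrial share per nucleus was 0.480% in male and 0.655% in female members. Of 11 glucocorticoid receptor targets, 3 were higher in male and 8 in female members, against 35.1% of all genes higher in female members, with a median of -0.21, and -0.16 in CA1-like, -0.04 in CA3-like and -0.27 in oligodendrocyte-like nuclei. Fkbp5, a chaperone of that receptor and a target of it, was at 122 CPM in male and 165 CPM in female members. X-linked genes known to escape inactivation had 7 of 8 higher in the female members, with a median of -0.32.

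Of the retinoid genes, relevant because Stra8 is a retinoic acid target, 6 of 23 could be compared, and Stra6, the retinol-binding protein receptor, was part of the rule. Of these 6, 5 were higher in male members, against 64.9% of all genes, with a list median of 0.24, and 0.22 in CA1-like, 0.13 in CA3-like and 0.17 in oligodendrocyte-like nuclei. Aldh1a1, a retinaldehyde dehydrogenase, was the exception, at 13.3 CPM in male and 27.0 CPM in female members. Rara and Rarb, retinoic acid receptors, were at 3.20 and 8.09 CPM in male and at 2.52 and 8.53 CPM in female members. Ventral granule genes did not reach the minimum, and the 3 dorsal genes had a median ratio of 0.07. Immature granule neuron genes had 6 measured, 6 of them higher in male members against 64.9% of all genes, with a median of 0.21, and 0.22 in CA1-like, 0.27 in CA3-like and 0.45 in oligodendrocyte-like nuclei.

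Granule neurons with 3 or more immediate early genes were 4.01% of the male nuclei that met the other criteria (3.33 to 4.79) and 3.06% of the female ones (2.10 to 4.29), a ratio of 1.31 (0.881 to 2.01). The interval includes 1. These nuclei had medians of 11117.5 (male) and 13394.5 (female) UMIs, above the members' 5531.5 (male) and 5871 (female), and 33.6% of the male and 37.5% of the female ones also reached the CA1 marker minimum. The male nuclei with both sets of markers had a median of 21557 UMIs and the female ones 21805. The part of depth and of mixed nuclei in what follows was not tested, and the rule split the nuclei by related genes, so the values are a description.

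In members, 59 of 6948 genes (0.849%) were at least 2-fold lower than in granule neurons with immediate early genes in both libraries and 1 gene, Cdk6 (0.0144%), was higher. After thinning every nucleus to 1000 UMIs the lower genes were 155. The 32 female nuclei with immediate early genes then hold so few UMIs that 1 UMI exceeds the minimum of 20 CPM. Genes can pass on very few UMIs, so this count cannot be set against the 59. The lower genes were led by Col11a1, Hunk, 4921539H07Rik and Nell1 and included Kcnq5, Chrm3 and Gm49678, which were also lower in members than in CA1-like and CA3-like neurons. Leaving out nuclei with CA1 or CA3 markers, which left 2554 male and 925 female members and 70 male and 18 female nuclei with immediate early genes, 29 of 7205 genes (0.402%) were lower and 4 (0.0555%) were higher. The log2 ratio of Kcnq5, members over nuclei with immediate early genes, was then 0.05 among male and 0.50 among female nuclei, against -1.51 (male) and -1.80 (female) with all nuclei. Col11a1 was then at -1.34 (male) and 0.59 (female), 4921539H07Rik at 0.53 (male) and 0.30 (female), and Gm49678 at 0.28 (male) and 2.48 (female). These genes were thus no longer at least 2-fold lower in both libraries. The nuclei with immediate early genes held few of their UMIs. There was 1 female UMI of Col11a1 (interval of the ratio -1.23 to 1.67). There was 1 UMI of 4921539H07Rik in each library (male -0.59 to 0.94, female -1.52 to 1.39). Gm49678 had 9 male UMIs (-0.48 to 1.05) and 0 female UMIs (0.07 to 2.48). Such counts cannot show a change of direction.

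Late activity response genes, which follow the immediate early genes after firing, were lower in members for 14 of 16 in the male library, with a median of -0.50, and for 10 of 16 in the female library, with a median of -0.18. Of all genes, 48.0% were lower in male and 42.5% in female members, and the median gene was at 0.01 (male) and 0.07 (female). Nr4a2, Nr4a3, Fosl2, Spry2 and Per1 reached the minimum of 20 CPM only in nuclei with immediate early genes and so had to be lower in members. Over the other 11 genes the median was -0.20 (male) and 0.03 (female), with 9 lower in male and 5 lower in female members. Nr4a3, an orphan nuclear receptor, was at 17.4 CPM in male members against 51.9 CPM in male nuclei with immediate early genes, a log2 ratio of -1.34 (-1.65 to -1.02). In the female library it was at 14.5 CPM in members against 85.1 CPM, a ratio of -2.20 (-2.65 to -1.74). Homer1, a scaffold of the postsynaptic density with an activity-induced short form, had ratios of -1.05 in the male (-1.20 to -0.89) and -0.66 in the female library (-0.93 to -0.37). Fosl2, an AP-1 factor, had ratios of -0.88 in male (-1.28 to -0.48) and -1.56 in female nuclei (-2.18 to -0.88). Homer1 was lower in members in both libraries, while the direction of Nr4a3 and Fosl2 was fixed by the minimum and supports nothing. Scg2, a granin of dense-core vesicles, was not separated, with ratios of -0.04 in male (-0.32 to 0.26) and 0.10 in female nuclei (-0.46 to 0.68). Without the CA-marker nuclei, the 16 genes had medians of -0.80 (male) and -0.68 (female), with 16 lower in male and 11 lower in female members. The other 11 genes had medians of -0.46 (male) and -0.37 (female), with 11 lower in male and 6 lower in female members. Of all genes, 53.1% were then lower in male and 51.4% in female members. The female count of the 11 genes was near that share. The 18 female nuclei gave few UMIs.

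**Figure D5:**
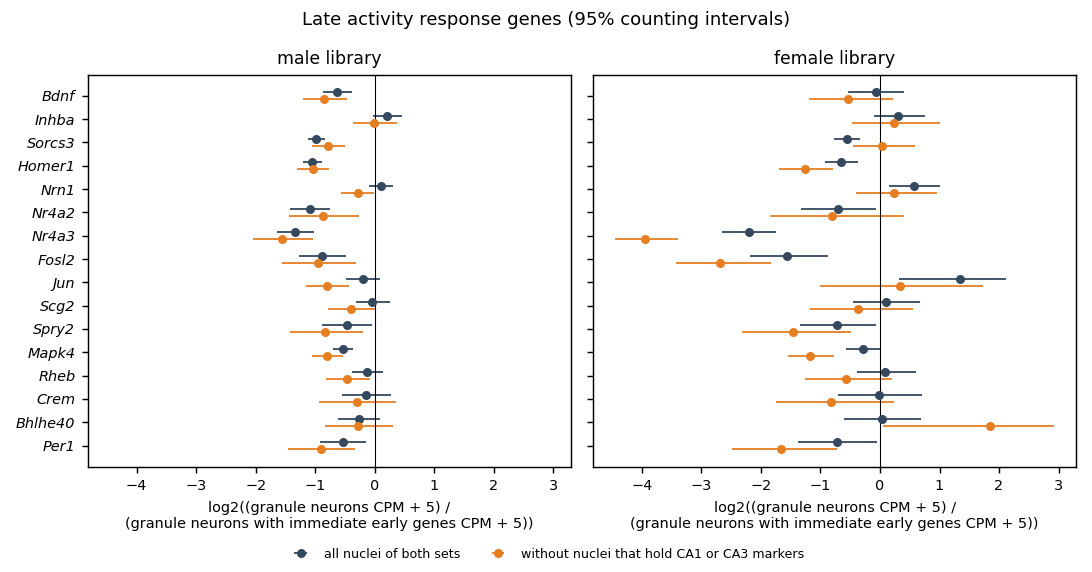
Log2 ratio of granule neurons over granule neurons with immediate early genes for 16 late activity response genes, male library left and female right, with 95% counting intervals. Blue shows all nuclei, and orange leaves out nuclei that hold CA1 or CA3 markers. Homer1 is at -1.05 (male) and -0.66 (female) for all nuclei. Nr4a2, Nr4a3, Fosl2, Spry2 and Per1 had to be below 0 for all nuclei.

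Promoters of 4 of these genes are shown because many activity response genes are known to hold cyclic AMP response elements. The windows run from 250 bases before to 50 after the start and are RefSeq sequences of GRCm38.p6, given 5′ to 3′ on the gene's strand. Capitals mark the short element TGACG or its reverse complement CGTCA, overlapping in the full element TGACGTCA. They lie at chr4:48045055-48045354 (+ strand) for Nr4a3, chr13:93303507-93303806 (+) for Homer1, chr1:79439977-79440276 (-) for Scg2 and chr5:32136222-32136521 (+) for Fosl2.
Nr4a3: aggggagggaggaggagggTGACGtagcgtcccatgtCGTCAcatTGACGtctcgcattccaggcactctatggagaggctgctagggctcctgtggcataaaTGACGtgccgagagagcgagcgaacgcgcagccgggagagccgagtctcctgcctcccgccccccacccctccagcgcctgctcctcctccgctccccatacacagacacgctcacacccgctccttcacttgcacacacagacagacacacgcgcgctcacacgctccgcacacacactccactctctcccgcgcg
Homer1: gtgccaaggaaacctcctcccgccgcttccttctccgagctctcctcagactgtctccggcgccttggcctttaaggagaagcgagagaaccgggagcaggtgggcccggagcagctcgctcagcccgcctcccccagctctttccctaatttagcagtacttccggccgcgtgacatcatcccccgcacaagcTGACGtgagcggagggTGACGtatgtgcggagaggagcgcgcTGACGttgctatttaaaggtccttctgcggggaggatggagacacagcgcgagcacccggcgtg
Scg2: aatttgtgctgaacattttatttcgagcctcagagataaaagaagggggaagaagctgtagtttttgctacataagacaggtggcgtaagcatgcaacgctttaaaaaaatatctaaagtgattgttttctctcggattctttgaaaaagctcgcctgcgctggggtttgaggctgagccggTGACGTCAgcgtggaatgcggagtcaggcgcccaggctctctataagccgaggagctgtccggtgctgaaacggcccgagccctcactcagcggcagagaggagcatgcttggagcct
Fosl2: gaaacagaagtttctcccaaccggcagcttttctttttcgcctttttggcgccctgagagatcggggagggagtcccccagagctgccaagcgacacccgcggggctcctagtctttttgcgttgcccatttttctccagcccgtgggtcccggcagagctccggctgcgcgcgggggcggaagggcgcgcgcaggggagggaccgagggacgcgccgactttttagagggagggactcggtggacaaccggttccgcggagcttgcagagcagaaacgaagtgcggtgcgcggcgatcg
The windows of Nr4a3 and Homer1 held 4 and 3 short elements, while a second Homer1 window at chr13:93307784-93308083 held none, that of Scg2 held 1 full element, and that of Fosl2 held none of these letters. On either strand the short element was in 6837 of 32851 mouse windows (20.8%) and in 8 of 20 windows of the 12 late genes with one. The full element was in 588 windows (1.79%) and in 1 of the 20. A match is a description of the letters, and factor binding was not measured.

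Members also varied among themselves. After thinning each to 2000 UMIs, which left out 4 nuclei in each library, the variance-to-mean ratio of counts over nuclei had a median of 1.05 in male and 1.06 in female members over 3569 genes, and counting alone gives about 1. Galntl6, a glycosyltransferase gene that is one of the CA1 markers used here, at 528 (male) and 764 (female) CPM in members against 5519 (male) and 7114 (female) CPM in CA1-like neurons, had ratios of 7.09 (male) and 7.64 (female), and Gpc5, a glypican, 6.83 (male) and 7.29 (female). Galntl6 was detected in 19.4% of male and 24.5% of female members at that depth, a minority of nuclei. Cntnap2 (4.60 male and 5.48 female), Kcnq5 (3.50 male and 3.98 female), both lower in members than in pyramidal neurons, and the astrocyte transporter gene Slc1a2 (3.50 male and 5.76 female) were also among the 10 most variable. The part of mixed nuclei in these ratios was not tested. Prox1, which chose the members, had ratios of 1.10 (male) and 1.07 (female).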

How the data were processed

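Nuclear RNA of hippocampal nuclei from 1 male and 1 female Stra8-cKO library was measured. The deposited matrices hold UMI counts per gene and barcode, and their headers name Cell Ranger 7.0.1; bcl2fastq 2.20.0.422 and the build mm10 are named in the submitters' processing notes. Of 32285 listed genes, 32158 were matched by gene ID to annotation. No source used here states how strand was counted, so overlapping antisense pairs such as Prox1 and Prox1os are uncertain. The files hold no cell types, and members, comparison classes and gene lists were chosen with earlier results of these data known.

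Counts were summed per class and library and divided by the class total, giving CPM computed here from the deposited counts. CA1-like, CA3-like and oligodendrocyte-like nuclei were taken from the remaining nuclei by marker minimums of 6 UMIs over 4 of 7 genes, with CA1 markers over 2 times the CA3 markers for CA1-like and CA3 markers above CA1 markers for CA3-like nuclei. CA1-like and CA3-like nuclei met the members' limits on Gad, oligodendrocyte and immediate early genes, and none met the granule marker criterion. Ratios are log2 after adding 5 CPM, with exact conditional binomial intervals; shares have Clopper-Pearson intervals. With 1 library per group no test was made, and a gene was counted when 2-fold apart. Named genes were the 10 highest and 10 lowest in male over female, the 15 highest and 10 lowest relative to CA1-like and CA3-like neurons, and the 10 lowest and 5 highest relative to nuclei with immediate early genes. Doublets were limited only by the rule. Scrublet in scanpy 1.11.5 called 9.57% of male and 0% of female nuclei on its own threshold, so it had not worked in the female library, and the top 8% of scores in each library was used as an alternative. Scripts were tested on simulated data (Python 3.11.15, numpy 2.4.6, scipy 1.17.1, pandas 2.3.3, matplotlib 3.10.9). One gene list is not reported here.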

Additional observations from a re-analysis of the deposited data

Results flagged for a closer look

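Zfp804b, a zinc finger gene among those farthest above CA1-like and CA3-like neurons, differed in opposite directions between classes. It was at 405 CPM in male and 655 CPM in female granule neurons, a log2 ratio of male over female of -0.69 (-0.74 to -0.63). Oligodendrocyte-like nuclei held 677 CPM (male) and 83.4 CPM (female), a ratio of 2.95. After thinning to 1000 UMIs it was detected in 31.7% of male and 43.1% of female granule neurons, and in 42.4% of male and 3.79% of female oligodendrocyte-like nuclei. With 1 library of each sex the difference between the classes was not tested.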

How the results depend on the processing

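The ratio of the members' shares, 3.28, was 2.31 under a stricter filter on nuclei, 3.58 with stricter and 2.82 with looser markers, 2.43 when the rule was applied after thinning to 2000 UMIs, and 2.51 without the limit on St18, an alternative chosen after seeing the data. Genes higher in male members were 15 rather than 23 with ratios centred on the median gene. Genes higher in female members, 10, were 6 with stricter markers, 19 with looser markers, 4 after thinning to 1000 UMIs, 16 with centring, 17 with 1 CPM added, and 23 with minimums of 30 UMIs and 5 CPM. Without nuclei that hold CA1 or CA3 markers, also chosen after seeing the data, genes lower than in CA1-like and CA3-like neurons were 119 rather than 68, and genes lower than in granule neurons with immediate early genes 29 rather than 59. The late response medians then were -0.80 in the male library rather than -0.50, and -0.68 in the female library rather than -0.18, and over the 11 genes that reach 20 CPM in members -0.46 (male) rather than -0.20 and -0.37 (female) rather than 0.03. Of those 11 genes, 11 were then lower in male and 6 in female members. Thinning gave 155 lower genes and a female median of -0.67, both limited by the few UMIs left in the 32 female nuclei with immediate early genes. Of genes lower than in nuclei with immediate early genes, the ratio nearest to or past 0 of the 2 libraries changed sign without CA-marker nuclei for Col11a1 (0.59), 4921539H07Rik (0.53), Gm49678 (2.48), Kcnq5 (0.50), Fhod3 (0.44) and Etl4 (0.28). After thinning it changed sign for Fhod3 (1.57), and for Prox1os (-0.45). The 6 ratios without CA-marker nuclei rest on 14 or fewer UMIs in nuclei with immediate early genes. Their intervals include 0 except for Gm49678 (0.07 to 2.48), which had 0 UMIs there. The causes were not tested. The 20 genes named for male over female kept their sign under each alternative run. They were chosen for the largest ratios, so a change of sign was unlikely beforehand and this supports nothing. Of their 220 values over all alternatives, 42 lay outside the interval of the main value. After thinning to 1000 UMIs these were 13 of 20, such as Foxp2, at -0.46 rather than -1.10. No paired analysis was possible because each group has 1 library, and leaving out a replicate was not possible for the same reason. The 32 female nuclei with immediate early genes limit what can be read from them.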

Other observations

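Members held few counts of other rare dentate cells. The hilar mossy cell markers summed to 154 CPM in male and 181 CPM in female members, and the Cajal-Retzius markers to 16.9 (male) and 17.3 (female) CPM. Nptxr, a receptor of neuronal pentraxins, was at 232 CPM in male and 110 CPM in female members, and Kcnj4, an inward rectifier channel, at 28.6 (male) and 11.7 (female) CPM, so each was past 2-fold. Jun, an AP-1 factor, was at 52.4 CPM in male and 21.1 CPM in female members.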
